A study of Mus musculus with 12 samples.

Results

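The genes described here write, maintain or remove 2 repressive chromatin marks, Polycomb methylation of histone H3 and methylation of DNA. They are the 10 genes Ezh1, Ezh2, Eed, Suz12, Dnmt1, Dnmt3a, Dnmt3b, Uhrf1, Tet2 and Tet3, found by symbol in the count table, and each has 1 row among the 17210 genes of the table. All 10 passed the filter on low counts and were among the 11177 genes tested. Their mRNA was followed in G1E-ER4 cells, a mouse erythroid progenitor line, when β-estradiol was given to switch on GATA1, when active SREBP2 was added, and when both were done together.

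Polycomb repressive complex 2 (PRC2) methylates lysine 27 of histone H3. EZH2 or its relative EZH1 supplies the catalytic activity, while EED and SUZ12 hold the complex together and are needed for it to work. EZH2 is the form of dividing cells and EZH1 has the weaker methyltransferase, and an exchange of EZH2 for EZH1 has been described in erythroid cells as they mature, which is called the EZH switch. DNMT1 copies DNA methylation onto newly made strands, guided by UHRF1, which binds the half-methylated sites left by replication. DNMT3A and DNMT3B set new methylation, and TET2 and TET3 oxidize methylated cytosine as the first step of its removal.

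RNA was measured in 12 libraries, 3 in each of 4 groups. All cells were G1E-ER4 cells, labelled strain C57BL/6J, which lack their own GATA1 and carry in its place GATA1 fused to the hormone-binding domain of the estrogen receptor, which β-estradiol (EST) is used to activate. How active this fusion protein was in each group, with or without EST, was not measured here. From immunoblots, the study reports that overexpressed SREBP2 moved the fusion protein into the nucleus in cells without EST. Vector cells carried an empty retrovirus for 24 h and were not given EST. SREBP2 cells carried a retrovirus for the active fragment of SREBP2 (residues 1 to 468), the transcription factor of cholesterol synthesis genes, for the same time and without EST. Vector+EST and SREBP2+EST cells were transduced likewise and then received EST for 6 h. The labels give the dose of EST as 500 nM per sample but as 200 nM for the series. The fusion protein and the forced expression of a fragment that bypasses the cell's own control of SREBP2 processing limit these cells as a model, and the labels do not say whether the libraries of a group came from separate cultures. The study's captions to its plots of these data speak of independent experiments. The p-values measure only the spread between these libraries, which may in part be technical. Since whole cultures were sequenced, fewer cells expressing a gene and less RNA per cell cannot be told apart.

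Stretches before a transcript start of 5 of the genes are shown first, because these genes carry the largest changes (Dnmt3b, Uhrf1, Suz12) or form the EZH pair (Ezh1, Ezh2). They come from RefSeq, build GRCm38.p6, the build named in the submitters' processing notes. Lower-case letters run 5′ to 3′ on the strand of the gene, and capitals mark words searched for on both strands in the 250 bases before each RefSeq transcript start: a GATA word (NGATAN, with A or T as the first letter and A or G as the last), an E2F word (TTNNCGC, with C or G at each N), the CCAAT box and the sterol element TCACNCCAC. The Ezh1 stretch is chr11:101226464-101226713 on the minus strand and the Suz12 stretch is chr11:79992856-79993105 on the plus strand. The Uhrf1 stretch is chr17:56303087-56303336 on the plus strand and the Dnmt3b stretch is chr2:153649199-153649410 on the plus strand, and these 4 lie upstream of the gene as annotated. The Ezh2 stretch, chr6:47595066-47595095 on the minus strand, lies within the annotated span of the gene, before the start of a shorter transcript, and only the 30 bases that hold a CCAAT box and a GATA word are shown. The stretch of Dnmt3b is cut to 212 bases, where the annotated span of the gene begins. In the same annotation Ezh1 spans chr11:101191115-101226463, Suz12 chr11:79993106-80034123 and Ezh2 chr6:47530274-47595270. Uhrf1 spans chr17:56303337-56323486, Dnmt3b chr2:153649411-153687730, Eed chr7:89954654-89980976 and Dnmt1 chr9:20907206-20959888. Dnmt3a spans chr12:3801559-3914443, Tet2 chr3:133463677-133545136 and Tet3 chr6:83362373-83457208.
Ezh1: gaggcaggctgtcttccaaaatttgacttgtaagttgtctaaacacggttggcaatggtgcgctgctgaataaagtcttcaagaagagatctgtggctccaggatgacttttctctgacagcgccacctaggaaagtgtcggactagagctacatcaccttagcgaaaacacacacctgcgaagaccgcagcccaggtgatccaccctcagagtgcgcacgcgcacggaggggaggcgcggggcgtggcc
Ezh2: tCCAATcggagaggcgctTGATAGtgctgg
Suz12: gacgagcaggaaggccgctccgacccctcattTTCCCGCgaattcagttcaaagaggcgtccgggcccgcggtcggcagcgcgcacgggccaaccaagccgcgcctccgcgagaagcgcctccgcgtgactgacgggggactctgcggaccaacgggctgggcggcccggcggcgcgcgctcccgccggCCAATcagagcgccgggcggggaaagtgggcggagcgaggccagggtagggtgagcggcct
Dnmt3b: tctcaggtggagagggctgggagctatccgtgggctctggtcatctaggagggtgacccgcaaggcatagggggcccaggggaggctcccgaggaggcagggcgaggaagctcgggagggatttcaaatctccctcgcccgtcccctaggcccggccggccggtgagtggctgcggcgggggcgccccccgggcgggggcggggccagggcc
Uhrf1: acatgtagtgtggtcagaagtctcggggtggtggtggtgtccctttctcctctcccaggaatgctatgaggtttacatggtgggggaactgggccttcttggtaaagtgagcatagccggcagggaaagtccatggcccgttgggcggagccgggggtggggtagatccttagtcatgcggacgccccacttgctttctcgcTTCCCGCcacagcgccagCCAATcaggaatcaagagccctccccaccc

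Among 15 windows of the 10 genes, GATA words were found before Ezh2 and Dnmt1, and E2F words before Suz12, Dnmt1 and Uhrf1. CCAAT boxes were found before Ezh2, Suz12, Dnmt1, Uhrf1 and Tet3. Of 32851 RefSeq windows of the same length, 26.5% held a GATA word, 7.89% an E2F word, 33.8% a CCAAT box and 1.05% the sterol element, which none of the 15 windows held. The shown stretches of Ezh1 and Dnmt3b held none of the words. Those of Suz12 and Uhrf1 each held 1 E2F word and 1 CCAAT box, and whether the words bear on expression was not tested. CpG pairs numbered 37 in the whole window of Suz12, 21 in that of Dnmt3b (16 in the stretch shown), 23 in that of Ezh2, 14 in that of Ezh1, and 10 and 30 in the windows of Uhrf1, of which the first is shown, against a median of 6 over all windows. The other Uhrf1 window held 1 E2F word and 2 CCAAT boxes. No marked words overlap in the stretches shown, and a match is a description of the sequence only.

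Levels are given as CPM, counts scaled to one common library size. Total counts ran from 18700959 to 19152281, and the detection limit was set at 3 counts, or 0.153 to 0.163 CPM. Srebf2, the gene of SREBP2, was at 816 ± 20.1 CPM (SD, n = 3) in SREBP2 and 808 ± 6.65 CPM in SREBP2+EST, above the 361 ± 8.32 CPM of Vector and the 441 ± 13.0 CPM of Vector+EST, and whether its reads came from the cell's own gene or the introduced fragment was not separated. All 9 erythroid markers examined were present, at 5280 to 9350 CPM in sum, although the cell type label reads embryonic stem cells. The 3 embryonic stem cell markers with a row in the table, Nanog, Sox2 and Dppa5a, came to at most 0.65 CPM in sum. SREBP2 library 1 and SREBP2+EST library 1 each lay nearer the other's group. On the first principal component they stood at 29.6 and 26.1, where the other SREBP2 libraries stood at 22.4 and 22.5 and the other SREBP2+EST libraries at 31.0 and 31.2. Results on either SREBP2 group are therefore given with all libraries and, where a call changed, without these 2 libraries. Since the 2 were picked from these same data, values without them are a description and not a test.

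Of the marker lists outside the 10 genes, the erythroid and neural sums were higher in all Vector libraries than in the others, while the fibroblast sum of Vector lay within the ranges of both groups with EST. The erythroid list summed to 8920 to 9350 CPM in Vector and 5280 to 6450 CPM elsewhere, with Gata1 at 1770 ± 17.1 CPM in Vector and at 452 ± 28.5 CPM (Vector+EST) to 557 ± 40.2 CPM (SREBP2) elsewhere. Whether the Gata1 reads came from the fusion was not separated. Hba-a1 (1520 to 3220 CPM over all libraries), Hbb-b1 (2550 to 3310 CPM) and Gata1 made up most of the sum. Others, such as Tal1 (82 to 485 CPM), Alas2 (51.9 to 186 CPM) and Slc4a1 (2.46 to 69.6 CPM), weighed little in it. The sum therefore does not give the direction of each erythroid marker. All 6 neural markers had reads, and they summed to 14.4 to 16.9 CPM in Vector and 3.07 to 11 CPM elsewhere, with Snap25 and Nefl at 0 in at least 1 library. The 8 fibroblast markers summed to 21.1 to 22.3 CPM in Vector, 5.82 to 8.93 CPM in SREBP2, 6.48 to 36.9 CPM in Vector+EST and 18.9 to 35.9 CPM in SREBP2+EST, with Col1a1, Col3a1, Fn1, Igfbp7, Mmp2 and Thy1 at 0 in at least 1 library. Myeloid markers summed to 2.15 to 4.79 CPM, lymphoid markers to 2.82 to 5.1 CPM and endothelial markers to 0.209 to 1.13 CPM. Their part in the results below was not tested.

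**Figure D1:**
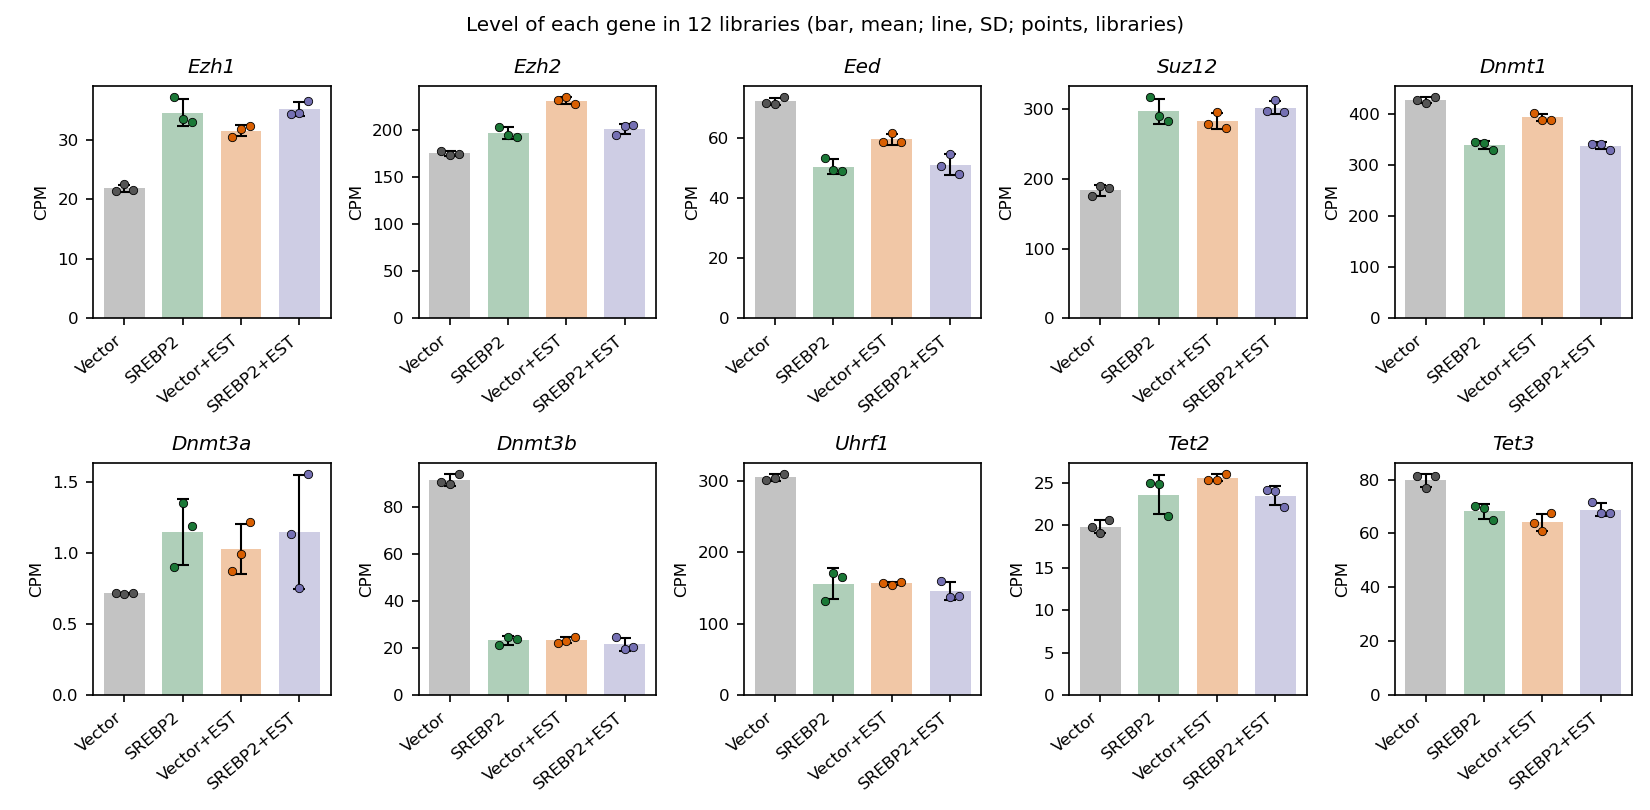
Level of each of the 10 genes in CPM (vertical axis, from 0) in the 4 groups; bars are means of 3 libraries, lines the SD and points the libraries. Dnmt3b fell from 91.6 CPM in Vector to between 21.6 and 23.4 CPM in the other groups, while Ezh1 and Suz12 were higher in all 9 other libraries than in any Vector library.

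The first comparison asked what EST, given to switch on GATA1, did in Vector cells. EST raised Ezh1, Ezh2, Suz12 and Tet2 and lowered Eed, Dnmt1, Dnmt3b, Uhrf1 and Tet3, so that 9 of the 10 genes passed the threshold (edgeR adjusted p under 0.05). This has to be read against the background, since 70.6% of all genes tested passed it in this comparison. The 4 rises lay between 0.37 and 0.62 on the log2 scale, and the largest falls were those of Dnmt3b, to 25.6% of its Vector level, and Uhrf1, to 51.3%. Dnmt3a did not pass. The median over the 10 genes was 0.12, beside 0.01 over all genes.

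The second comparison asked what active SREBP2 did in cells without EST. Here too 9 of the 10 genes passed the threshold, against 71.5% of all genes tested. Ezh1, Ezh2, Suz12 and Tet2 were higher and Eed, Dnmt1, Dnmt3b, Uhrf1 and Tet3 were lower than in Vector cells. Both comparisons use the same 3 Vector libraries, so their likeness is not independent and no overlap between them is given, and the values of both follow side by side for each gene. Libraries of the groups did not overlap for any of the 10 genes in either comparison, nor for 75.7% (EST) and 74.8% (SREBP2) of all genes tested.

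The catalytic subunits came first. Ezh1, the weaker methyltransferase, measured 21.5, 22.6 and 21.5 CPM in the Vector libraries and 30.5, 31.8 and 32.4 CPM in the Vector+EST libraries. It measured 37.2, 33.6 and 33.0 CPM in SREBP2 and 34.4, 34.6 and 36.6 CPM in SREBP2+EST. Every library other than Vector lay above every Vector library, and SREBP2 library 1 was the highest of the 12. EST raised Ezh1 in Vector cells by 0.53 ± 0.060 on the log2 scale (SE, edgeR adjusted p = 7.64e-07), which is 1.44-fold, and SREBP2 without EST raised it by 0.66 ± 0.060 (adjusted p = 4.58e-08), which is 1.58-fold.

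Ezh2, the main methyltransferase of dividing cells, measured 178, 173.5 and 174.5 CPM in Vector and 232, 235 and 227 CPM in Vector+EST. It measured 204, 194.5 and 192.5 CPM in SREBP2 and 195, 204 and 205 CPM in SREBP2+EST. The Vector+EST libraries were the 3 highest, the Vector libraries the 3 lowest, and both SREBP2 groups lay between them and overlapped. EST raised Ezh2 in Vector cells 1.32-fold (log2 0.40 ± 0.036, edgeR adjusted p = 5.74e-08), and SREBP2 without EST raised it 1.12-fold (log2 0.17 ± 0.037, adjusted p = 0.000682). Counts of Ezh2 and Dnmt3a carry decimals, which marks reads that the counting tool shared out between features, so their levels are less certain than those of the other 8 genes, all of which have whole counts.

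The EZH switch was examined as the ratio of Ezh1 to Ezh2 counts within a library, which needs no scaling between libraries. Ezh1 stood at 12.1%, 13.0% and 12.3% of Ezh2 in the Vector libraries and at 13.1%, 13.6% and 14.2% in Vector+EST. It stood at 18.3%, 17.3% and 17.2% in SREBP2 and at 17.6%, 16.9% and 17.8% in SREBP2+EST. The 6 libraries with added SREBP2 held the highest ratios, the Vector+EST libraries lay just above the Vector libraries, and Ezh1 stayed the minor gene in all 12.

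The ratio was 1.41-fold higher in SREBP2 than in Vector, 1.09-fold higher in Vector+EST than in Vector, and 1.28-fold higher in SREBP2+EST than in Vector+EST. In each of these 3 pairs the groups did not overlap and the exact two-sided permutation p was 0.1, the smallest that 3 libraries against 3 allow, so that none can pass the threshold (adjusted p = 0.133 over 4 comparisons). Between SREBP2+EST and SREBP2 the ratio was 0.995-fold (exact permutation p = 0.9). With counts divided by transcript length, Ezh1 made up 7.64% ± 0.279 (SD, n = 3) of the summed Ezh1 and Ezh2 level in Vector, 8.3% ± 0.307 in Vector+EST, 10.4% ± 0.323 in SREBP2 and 10.4% ± 0.252 in SREBP2+EST. The summed level itself was 68.3 ± 0.836 CPM per kb in Vector, 90.7 ± 1.27 CPM per kb in Vector+EST, 79.1 ± 2.73 CPM per kb in SREBP2 and 80.8 ± 2.17 CPM per kb in SREBP2+EST. With exon length instead, Ezh1 stood at 2.94 and Ezh2 at 26.3 CPM per kb in Vector, so share and sum depend on the length used.

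**Figure D2:**
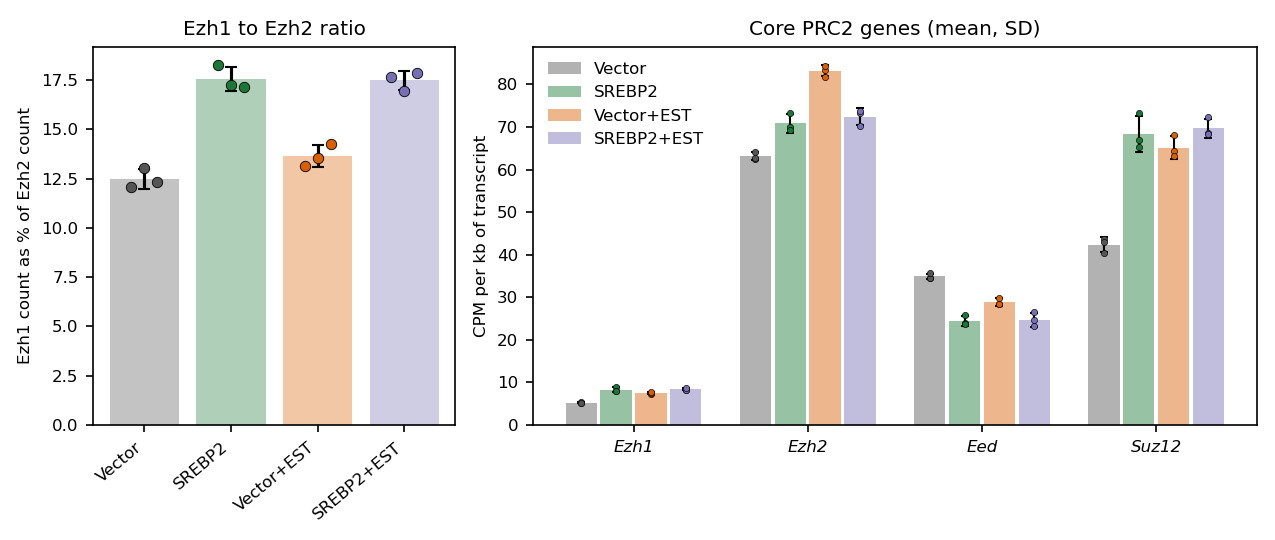
Left, Ezh1 count as a percentage of the Ezh2 count by group (bars, means; lines, SD; points, 3 libraries); right, level of the 4 core PRC2 genes in CPM per kb of transcript (bars, means; lines, SD; points, libraries). The ratio was 12.5% in Vector and 13.6% in Vector+EST against 17.6% and 17.5% in the groups with SREBP2, and Ezh1 was the lowest of the 4 genes per kb in every group.

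The noncatalytic core subunits moved in opposite directions. Suz12, which links the subunits and binds chromatin, measured 175, 189.5 and 187 CPM in Vector and 279, 295.5 and 274 CPM in Vector+EST. It measured 318, 290.3 and 283 CPM in SREBP2 and 297, 313 and 296.5 CPM in SREBP2+EST. All 9 other libraries lay above the highest Vector library, and the SREBP2 libraries overlapped those of both groups with EST. Suz12 rose 1.54-fold with EST in Vector cells (log2 0.62 ± 0.049, edgeR adjusted p = 9.23e-09) and 1.62-fold with SREBP2 without EST (log2 0.69 ± 0.049, adjusted p = 2.3e-09).

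Eed, which reads the methylated histone and stimulates the enzyme, measured 71.5, 71.2 and 73.6 CPM in Vector and 58.6, 61.7 and 58.5 CPM in Vector+EST. It measured 53.2, 49.3 and 48.9 CPM in SREBP2 and 50.8, 54.7 and 47.9 CPM in SREBP2+EST. Vector libraries were highest, Vector+EST libraries came next without overlap, and the SREBP2 groups were lowest. Eed fell to 0.827-fold of its Vector level with EST (log2 -0.27 ± 0.052, edgeR adjusted p = 0.000185) and to 0.70-fold with SREBP2 (log2 -0.52 ± 0.053, adjusted p = 2.14e-07). Per kb of transcript, Eed was below Suz12 in every group, at 34.9 ± 0.621 against 42.3 ± 1.77 CPM per kb in Vector, and at 24.4 ± 1.16 against 68.4 ± 4.21 CPM per kb in SREBP2.

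Of the genes that act on DNA methylation, Dnmt3b, a writer of new methylation, changed most. It measured 90.7, 89.8 and 94.4 CPM in Vector and 22.3, 23.1 and 24.8 CPM in Vector+EST. It measured 21.2, 24.8 and 23.9 CPM in SREBP2 and 24.6, 19.5 and 20.6 CPM in SREBP2+EST. The 9 libraries with EST, SREBP2 or both lay together, far below the Vector libraries. The fall was 3.91-fold with EST in Vector cells (log2 -1.97 ± 0.073, edgeR adjusted p = 1.14e-12), which put Dnmt3b at percentile 2.02 of the log2 fold changes of all genes tested, and 3.93-fold with SREBP2 (log2 -1.98 ± 0.074, adjusted p = 8.73e-13), at percentile 1.47.

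Uhrf1, the partner of DNMT1, measured 301, 303 and 310 CPM in Vector and 157, 154 and 158 CPM in Vector+EST. It measured 131, 170.5 and 165.5 CPM in SREBP2 and 159, 137 and 139 CPM in SREBP2+EST. All 9 libraries outside Vector lay at or below 170.5 CPM, and SREBP2 library 1 and SREBP2+EST library 1 each resembled the other's group. Uhrf1 was lower by 48.7% with EST in Vector cells (log2 -0.96 ± 0.076, edgeR adjusted p = 9.98e-09) and by 48.9% with SREBP2 (log2 -0.97 ± 0.076, adjusted p = 8.54e-09).

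Dnmt1, the maintenance enzyme, measured 427, 421 and 433 CPM in Vector and 401, 389 and 389 CPM in Vector+EST. It measured 344.5, 343 and 329 CPM in SREBP2 and 342, 341 and 329.5 CPM in SREBP2+EST. The order was Vector, then Vector+EST, then both SREBP2 groups, which overlapped. Its fall was small with EST, to 0.921-fold (log2 -0.12 ± 0.033, edgeR adjusted p = 0.00422), and reached 0.794-fold with SREBP2 (log2 -0.33 ± 0.033, adjusted p = 1.54e-07).

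Dnmt3a, the other writer of new methylation, had 13.98 to 28.84 estimated counts per library, where the detection limit was 3. Its Vector libraries lay between 0.713 and 0.718 CPM and the other groups between 0.754 and 1.56 CPM. It did not pass the threshold with EST (log2 0.52 ± 0.30, edgeR adjusted p = 0.14) or with SREBP2 (log2 0.68 ± 0.30, adjusted p = 0.0544). The second value lay near the threshold and passed it without SREBP2 library 1 (log2 0.82, adjusted p = 0.0351), SREBP2+EST library 2 (adjusted p = 0.0419) or SREBP2+EST library 5 (adjusted p = 0.0414), and without SREBP2 library 1 and SREBP2+EST library 1 together (log2 0.79, adjusted p = 0.0481). Per kb of transcript, Dnmt3a was the lowest of the 10 genes in every group, at 0.0901 to 0.145 CPM per kb, and Dnmt3b stood at 5.28 to 22.4 CPM per kb.

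The 2 dioxygenases of the TET family also went opposite ways. Tet2 ranged from 19.2 to 20.6 CPM in Vector, from 25.3 to 26.1 CPM in Vector+EST, from 21.0 to 24.9 CPM in SREBP2 and from 22.2 to 24.2 CPM in SREBP2+EST. Vector libraries were lowest, Vector+EST libraries highest, and both SREBP2 groups lay between. Tet2 rose 1.29-fold with EST in Vector cells (log2 0.37 ± 0.070, edgeR adjusted p = 0.000208). With SREBP2 it rose 1.19-fold (log2 0.25 ± 0.071, adjusted p = 0.00476), a call that was lost without Vector library 4 (log2 0.19, adjusted p = 0.058) and without SREBP2 library 1 and SREBP2+EST library 1 together (log2 0.17, adjusted p = 0.0503).

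Tet3 ranged from 77.0 to 81.2 CPM in Vector, from 60.9 to 67.5 CPM in Vector+EST, from 65.0 to 70.2 CPM in SREBP2 and from 67.5 to 71.6 CPM in SREBP2+EST. Vector libraries were again apart from all others. Tet3 fell to 0.803-fold with EST (log2 -0.32 ± 0.049, edgeR adjusted p = 2.62e-05) and to 0.855-fold with SREBP2 (log2 -0.23 ± 0.049, adjusted p = 0.00062). Tet1, the third gene of this family, was below the filter on low counts and was not tested.

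**Figure D3:**
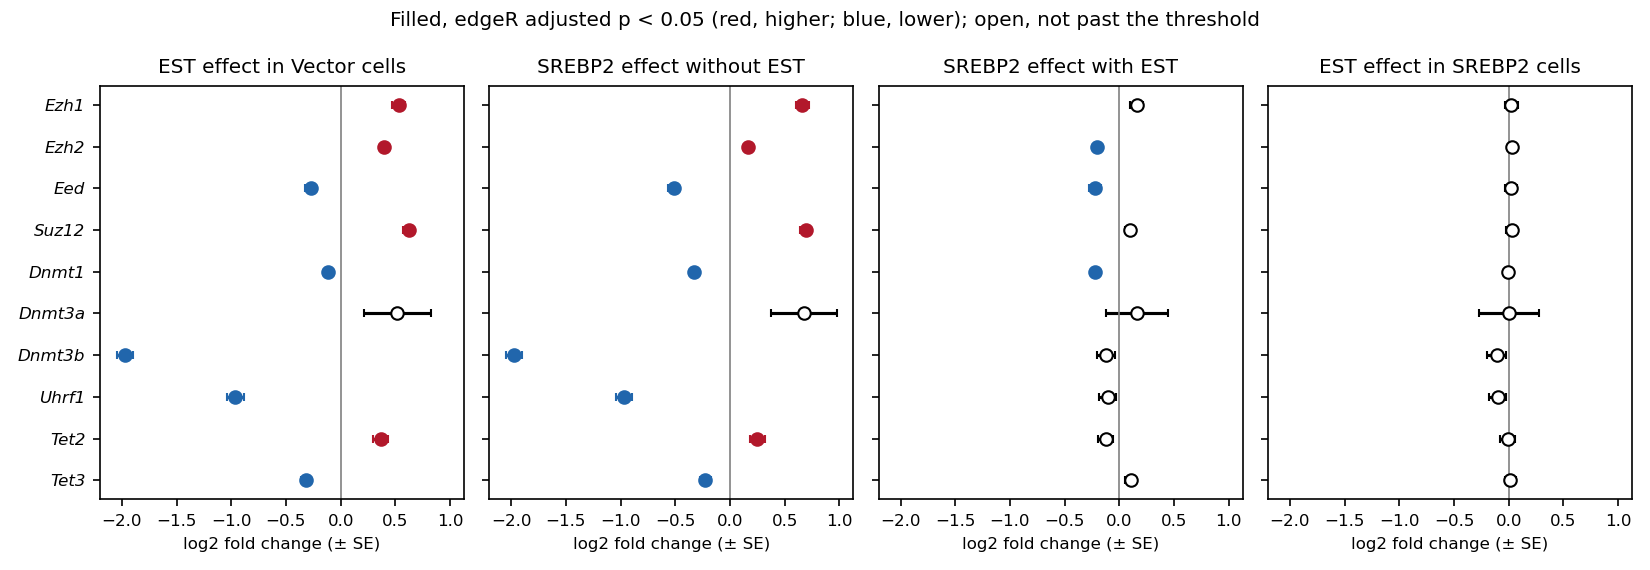
Log2 fold change (horizontal axis, ± SE) of the 10 genes in 4 comparisons; red and blue points passed an edgeR adjusted p of 0.05 as higher and lower, and open points did not pass. Of 10 points, 9 are filled in the first and second panels, 3 in the third and none in the fourth.

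The third comparison asked what SREBP2 did in cells that also received EST. Of the 10 genes 3 passed the threshold, all lower in SREBP2+EST than in Vector+EST, where 21.9% of all genes tested passed, 14% as higher and 7.94% as lower. With library totals as the only scaling, the same 3 members passed, and of all genes 11.6% were higher and 15.8% lower. These were Ezh2 (log2 -0.20 ± 0.036, edgeR adjusted p = 0.000741), Eed (log2 -0.22 ± 0.053, adjusted p = 0.007) and Dnmt1 (log2 -0.22 ± 0.033, adjusted p = 0.000132), lower by 13%, 14.2% and 14.1%. Ezh2 was thus higher with SREBP2 than with Vector in cells without EST, and lower in cells with EST, and the difference between these effects passed the test (interaction -0.37 ± 0.052, adjusted p = 1.46e-05). Ezh1 (log2 0.16 ± 0.057, adjusted p = 0.0619) and Suz12 (log2 0.10 ± 0.048, adjusted p = 0.171) did not pass.

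The other genes that did not pass are given by their intervals. The 95% interval of the fold was 0.738 to 1.69 for Dnmt3a, 0.815 to 1.04 for Dnmt3b, 0.828 to 1.04 for Uhrf1, 0.828 to 1.02 for Tet2 and 0.998 to 1.16 for Tet3. Without SREBP2 library 1 and SREBP2+EST library 1, 7 of the 10 genes passed, since Ezh1 (log2 0.17, edgeR adjusted p = 0.0226), Suz12 (log2 0.11, adjusted p = 0.0478), Dnmt3b (log2 -0.23, adjusted p = 0.0135) and Uhrf1 (log2 -0.18, adjusted p = 0.000432) were added, where 30.7% of all genes passed (3472). Ezh1 also passed without SREBP2 library 1 alone (adjusted p = 0.0275) and Dnmt3b without SREBP2+EST library 1 alone (adjusted p = 0.0485).

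The fourth comparison asked what EST did in cells that already had SREBP2. None of the 10 genes passed the threshold, and none of all genes tested did (0%). At an unadjusted p under 0.05 the edgeR test counted 506 of 11177 genes, fewer than that threshold alone would give without any effect. DESeq2 called 12 after adjustment. The log2 fold changes of the 10 genes lay between -0.11 and 0.03 (edgeR adjusted p from 0.919 to 1). The 95% interval of the log2 difference was -0.10 to 0.15 for Ezh1, -0.045 to 0.11 for Ezh2, -0.076 to 0.13 for Suz12 and -0.076 to 0.065 for Dnmt1, and that of Dnmt3a was wider, -0.59 to 0.59.

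This result changed when the 2 libraries that lay nearer the other's group were left out. They were picked by that place in these same data, so leaving them out was bound to set the 2 groups further apart. The counts without them are therefore no independent test. Whether the labels of these 2 libraries were exchanged cannot be told from the files. Without them, 1567 genes (13.9%) passed the threshold in this comparison, among them Dnmt3b (log2 -0.28, edgeR adjusted p = 0.0133) and Uhrf1 (log2 -0.28, adjusted p = 5.84e-05), both lower with EST, and the other 8 genes did not pass. In Vector cells EST changed the same genes by -1.97 and -0.96.

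Whether the EST effect differed between SREBP2 and Vector cells was tested directly as an interaction. It passed for 9 of the 10 genes, all but Dnmt3a (edgeR adjusted p = 0.299), against 59% of all genes tested. On the log2 scale, the EST effect in SREBP2 cells minus that in Vector cells was 1.86 ± 0.11 for Dnmt3b (adjusted p = 9.07e-10), 0.86 ± 0.11 for Uhrf1 (adjusted p = 4.51e-06) and -0.60 ± 0.068 for Suz12 (adjusted p = 1.7e-06). Dnmt1 was the weakest call (0.11 ± 0.047, adjusted p = 0.0476). It was lost without Vector library 1, SREBP2 library 3 or 5, Vector+EST library 3 or 5, or SREBP2+EST library 1 or 2, with adjusted p from 0.0565 without SREBP2 library 3 to 0.0968 without Vector+EST library 3. The interaction shares all its libraries with the comparisons above.

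The last comparison set the single treatments against each other, SREBP2 without EST against EST without SREBP2. Of the 10 genes 3 differed, where 23.4% of all genes tested did, 14.4% as higher and 8.96% as lower. With library totals as the only scaling these shares were 12.2% and 16.7%. SREBP2 left Ezh2 (log2 -0.23 ± 0.036, edgeR adjusted p = 0.000174), Eed (log2 -0.24 ± 0.053, adjusted p = 0.00371) and Dnmt1 (log2 -0.21 ± 0.033, adjusted p = 0.000168) lower than EST did. For Dnmt3b the 95% interval of the fold was 0.881 to 1.12, and for Uhrf1 it was 0.889 to 1.12. It was 1.01 to 1.19 for Ezh1, 0.979 to 1.13 for Suz12, 0.834 to 1.02 for Tet2, 0.989 to 1.15 for Tet3 and 0.736 to 1.69 for Dnmt3a, none of which passed after adjustment. Without SREBP2 library 1 and SREBP2+EST library 1, Uhrf1 was higher in SREBP2 than in Vector+EST (log2 0.10, adjusted p = 0.0266), which made 4 of the 10 genes, where 34.4% of all genes passed (3881).

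The genes that work with these 10 were described from 7 lists, and nothing is read as particular to a list. Of all genes tested, 35.2% rose and 35.5% fell with EST in Vector cells, and 37.7% rose and 33.8% fell with SREBP2 without EST. Without SREBP2 library 1 and SREBP2+EST library 1, 5 of the 7 lists had 1 rise fewer with SREBP2 without EST, and the genes that fell numbered the same in all 7. Among 7 tested partners of PRC2, 1 rose, 3 fell and 3 did not pass with EST in Vector cells, and 3 rose, 3 fell and 1 did not pass with SREBP2 without EST. Phf1, an accessory subunit that binds methylated histone, measured 9.24 ± 0.954 CPM (SD, n = 3) in Vector, 12.5 ± 1.27 CPM in Vector+EST and 19.4 ± 1.3 CPM with SREBP2 alone. Its rise was 1.36-fold with EST (edgeR adjusted p = 0.00113) and 2.1-fold with SREBP2 (adjusted p = 5.16e-08). Rbbp7, a histone-binding subunit, fell to 0.752-fold and 0.729-fold, and Aebp2, a further accessory subunit, fell to 0.768-fold and 0.704-fold. The median of the list was -0.04 with EST and -0.08 with SREBP2, where the medians of all genes were 0.01 and 0.03.

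PRC1, the complex that adds ubiquitin to histone H2A, had 19 tested genes, of which 8 rose, 7 fell and 4 did not pass with EST, and 8 rose, 8 fell and 3 did not pass with SREBP2 without EST. Pcgf3, which defines one variant of the complex, rose 2.58-fold with EST (edgeR adjusted p = 5.32e-12) and 2.33-fold with SREBP2 (adjusted p = 1.92e-11). Pcgf6, which defines another, fell to 0.582-fold and 0.561-fold. Kdm2b, which brings a variant PRC1 to CpG islands, rose 1.68-fold and 1.5-fold. The list median was -0.08 with EST and -0.12 with SREBP2.

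Of 5 tested genes that remove Polycomb marks, 4 rose and 1 did not pass with EST in Vector cells, and all 5 rose with SREBP2 without EST, with list medians of 0.22 and 0.31. These counts depended on the scaling. With relative log expression scaling 3 rose with EST and 4 with SREBP2, and with library totals 4 rose in each. The others did not pass. Kdm6a, a demethylase of the PRC2 mark, measured 49.8 ± 1.36 CPM in Vector and 85.7 ± 3.55 CPM in Vector+EST, a 1.72-fold rise (edgeR adjusted p = 3.25e-09), and rose 1.66-fold with SREBP2. Bap1, which removes ubiquitin from histone H2A, rose 1.58-fold and 1.44-fold, and its partner Asxl2 rose 1.17-fold and 1.15-fold. With SREBP2 in cells given EST, 1 gene of the list was higher and 1 lower, the latter being Bap1 (log2 -0.14, adjusted p = 0.0114), where 14% of all genes were higher and 7.94% lower. With library totals as the only scaling, 1 was higher and 3 were lower, where 11.6% of all genes were higher and 15.8% lower. Without those 2 libraries 1 was higher and 2 were lower, where 16.8% of all genes were higher and 14% lower.

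Partners of DNA methylation were divided in both comparisons, 3 of 5 tested genes higher and 2 lower. Hells, a chromatin remodeler needed for DNA methylation, fell from 152 ± 2.81 CPM in Vector to 107 ± 7.98 CPM in Vector+EST and 90.2 ± 3.88 CPM with SREBP2 alone (edgeR adjusted p = 2.18e-06 and 2.23e-08). Cdca7, its partner, fell to 0.709-fold and 0.64-fold. Usp7, a deubiquitinase that stabilizes DNMT1 and UHRF1, rose 1.41-fold and 1.25-fold. With SREBP2 in cells given EST, none of the 5 was higher and 3 were lower, where 14% of all genes were higher and 7.94% lower. These 3 were Hells (0.77-fold), Usp7 (0.888-fold) and Cdca7 (0.839-fold). With library totals as the only scaling the counts were the same, where 11.6% of all genes were higher and 15.8% lower.

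Of 7 genes listed as methyl-CpG-binding domain proteins and other readers of methylated DNA, 4 rose, 1 fell and 2 did not pass with EST, and 3 rose, 1 fell and 3 did not pass with SREBP2 without EST. The gene that fell was Mbd3, to 0.674-fold and 0.684-fold, a subunit of the NuRD complex that, unlike its close relative MBD2, does not bind methylated CpG selectively. Mbd1, which binds methylated CpG pairs, rose 1.27-fold and 1.25-fold.

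Of 8 partners of DNA demethylation, 3 rose, 4 fell and 1 did not pass in either comparison. Cxxc5, a CpG-binding protein, fell from 12.3 ± 0.524 CPM in Vector to 2.4 ± 0.547 CPM in Vector+EST and 1.97 ± 0.381 CPM with SREBP2 alone (edgeR adjusted p = 4.44e-10 and 1.6e-10). Gadd45b fell to 0.558-fold and 0.578-fold. Idh1, which makes the 2-oxoglutarate that TET enzymes need and is also a known sterol-regulated gene, measured 48.1 ± 1.65 CPM in Vector, 60.2 ± 1.15 CPM in Vector+EST and 304 ± 8.1 CPM with SREBP2 alone. Its rise was 1.25-fold with EST and 6.31-fold with SREBP2 (adjusted p = 3.19e-06 and 5.1e-17), and it also rose with SREBP2 in cells given EST (log2 2.34, adjusted p = 5.19e-16).

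**Figure D4:**
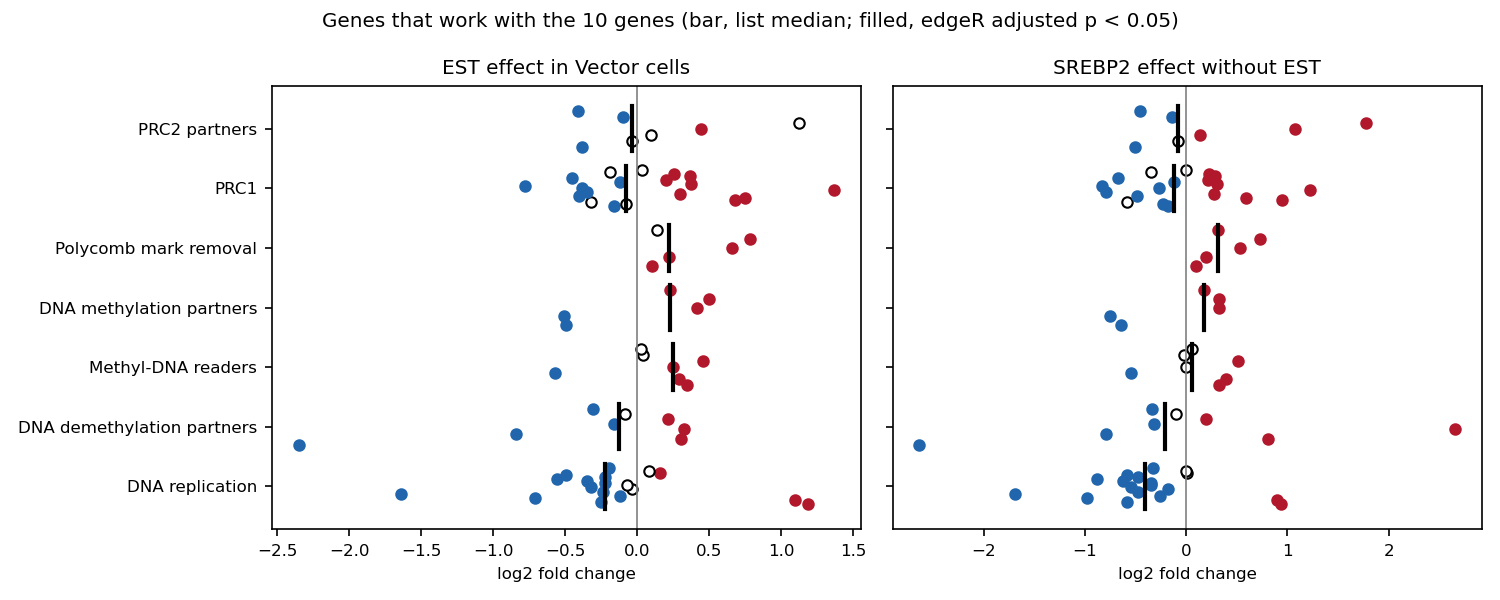
Log2 fold change (horizontal axis) of each tested gene in the 7 lists (rows) with EST in Vector cells and with SREBP2 without EST; filled red and blue points passed an edgeR adjusted p of 0.05, open points did not, and black bars are list medians. Medians of the mark removal list lay at 0.22 and 0.31 and those of the DNA replication list at -0.22 and -0.41.

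DNA replication genes were examined because UHRF1 and DNMT1 act on replicating DNA. With EST in Vector cells 12 of 18 fell, 3 rose and 3 did not pass, and with SREBP2 without EST 14 fell, 2 rose and 2 did not pass. In cells given EST, SREBP2 lowered 15 of the 18 and raised none, where 7.94% of all genes were lower and 14% higher. With library totals as the only scaling, it lowered all 18, where 15.8% of all genes were lower and 11.6% higher. E2f2, a transcription factor of the cell cycle, fell to 0.321-fold with EST (edgeR adjusted p = 2e-12) and 0.31-fold with SREBP2. Ccne1, a cyclin of S phase entry, rose 2.28-fold and 1.91-fold, and Cdc6, which loads the replicative helicase, rose 2.14-fold and 1.87-fold, so the list did not move as a whole.

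The replication list summed to 5180 ± 42.6 CPM in Vector, 4720 ± 46 CPM in Vector+EST, 4100 ± 227 CPM in SREBP2 and 4050 ± 161 CPM in SREBP2+EST. In percent of the Vector mean, its libraries lay at 90.2 to 92 in Vector+EST and at 74.1 to 82.2 in SREBP2, where Dnmt1 lay at 91.1 to 94 and at 77.2 to 80.7. Dnmt3b and Uhrf1 lay far below this sum, at 24.3 to 27.1 and at 50.5 to 51.8 in Vector+EST. Single genes of the list also lay far from its sum with EST in Vector cells, from E2f2 at 0.321-fold to Ccne1 at 2.28-fold. A place below the sum therefore does not set a gene apart from the list. The part of the replication list in the results on Dnmt1 and Uhrf1 was not tested.

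**Figure D5:**
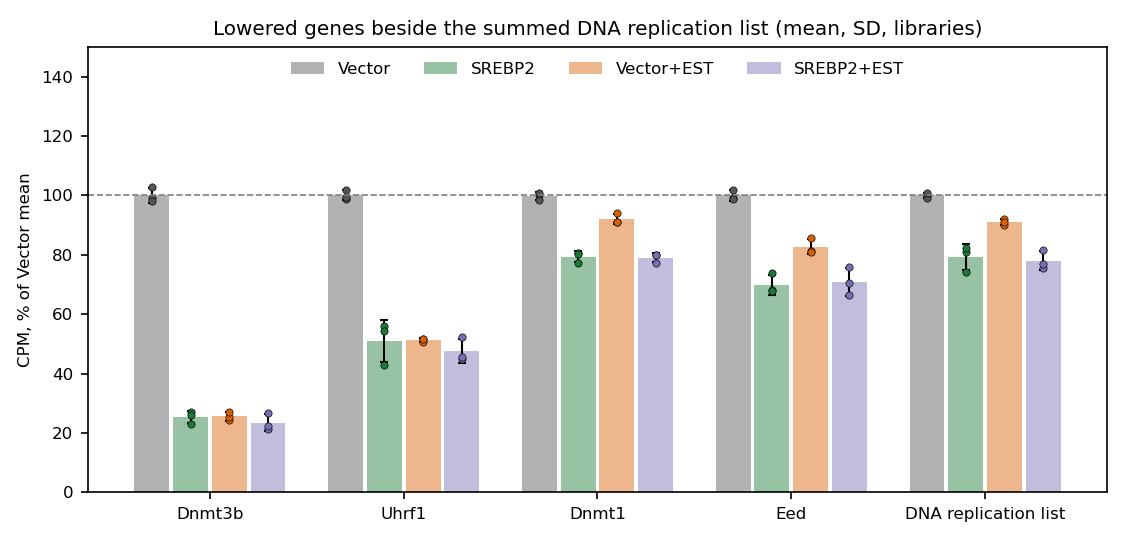
Level as a percentage of the Vector mean (vertical axis) of 4 lowered genes and of the summed DNA replication list by group; bars are means, lines the SD and points the 3 libraries. Outside Vector, mean Dnmt1 lay at 79.1 to 92.1 percent, Uhrf1 at 47.6 to 51.3 percent and Dnmt3b at 23.5 to 25.6 percent.

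The order of levels between genes was read per kb of transcript. Uhrf1 was the highest of the 10 in Vector, at 87.9 ± 1.34 CPM per kb, followed by Dnmt1 at 79.3 ± 1.11 CPM per kb and Ezh2 at 63.1 ± 0.931 CPM per kb. In Vector+EST, Ezh2 was highest, at 83.2 ± 1.35 CPM per kb, then Dnmt1 at 73.0 ± 1.34 CPM per kb and Suz12 at 65.2 ± 2.61 CPM per kb. In SREBP2 the levels of Ezh2, 70.8 ± 2.19 CPM per kb, and Suz12, 68.4 ± 4.21 CPM per kb, lay within their spread of each other. Tet2 and Dnmt3a were the lowest pair in every group. With exon length in place of transcript length, Suz12 rather than Ezh2 was the highest gene in the 3 groups other than Vector. Ezh2 then ranked 4 of the 10 in every group, and in SREBP2 it stood at 29.5 against 60.0 CPM per kb for Suz12. The order of Ezh2 thus depends on the length used.

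The genes whose pattern over the 12 libraries was most like that of a member were searched among 8553 genes, as a description, since the points share the same 4 groups. For Ezh1 these were Cep85, Mapk6 and Tom1l2 (Pearson r of log2 CPM 0.9962, 0.9941 and 0.9932). For Ezh2, which was highest in Vector+EST, they were Zfp609, Lmo4 and Pms2 (r = 0.986, 0.9849 and 0.9847). Lmo4 measured 24.3 CPM in Vector, 55.6 CPM in Vector+EST and 35.3 CPM with SREBP2 alone. For Dnmt1 they were Nsd2, Gm39972 and Sf3b2 (r = 0.9855, 0.9853 and 0.9833), and Nsd2, a methyltransferase of histone H3 lysine 36, measured 155 CPM in Vector, 142 CPM in Vector+EST and 120 CPM with SREBP2 alone. For Tet2 they were Gon4l, Tnpo2 and Sfpq (r = 0.96, 0.9544 and 0.9499).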

How the data were processed

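RNA was taken from 12 G1E-ER4 samples with TRIzol, purified with oligo(dT) beads and sequenced as single-end 50-base reads on a DNBSEQ platform, per the labels, by a protocol that names no strand marking. The authors deposited estimated counts per gene, not normalized (66.5% of values whole). The submitters' processing notes name HISAT2 2.0.4, Bowtie2 2.2.5, RSEM 1.2.12 and DESeq2 1.4.5, with build GRCm38.p6. The authors' table of their own pairwise comparisons was not used.

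Groups came from the sample titles. Columns were matched to groups by name, and libraries keep the numbers of their column headers, which differ from those of the titles. Counts were rounded, filtered with filterByExpr (6033 genes left out), scaled by TMM and tested with edgeR 4.0.16 in R 4.3.3 (quasi-likelihood F-test, 12 libraries in 1 fit, 1 mean per group), with Benjamini-Hochberg adjustment over 11177 genes and a threshold of 0.05. Standard errors came from the log2 estimate and its F statistic. CPM means are ± SD over 3 libraries, and intervals are 95%. The ratio of Ezh1 to Ezh2 was tested by an exact two-sided permutation test. Limits from 3 counts cover counting error only.

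The members and lists were chosen with earlier results of these data known. From each list of related genes, the up to 3 with the largest EST effect in Vector cells, past the threshold and without overlap between groups, were named, and for the likeness in pattern the 3 highest correlations among genes averaging 3 or more in log2 CPM. Not every gene under these rules is reported here. Epop, Cbx2, Cbx8 and Tet1 were among the listed genes below the filter, and Dnmt3l had no row. The number in the headers was checked for pairing: over 13 pairs of libraries with the same number, deviations from group means correlated at -0.174 to 0.0674, so the numbers were not taken as pairs. The procedure was tested on simulated counts. Alternatives were DESeq2 1.42.0, other scalings and filters, the compared groups alone, libraries left out and a block of library numbers.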

Additional observations from a re-analysis of the deposited data

Results flagged for a closer look

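The EST effect differed between SREBP2 and Vector cells for 9 of the 10 genes by the interaction test (edgeR), given here as the log2 effect in SREBP2 cells minus that in Vector cells. Among Polycomb genes the difference was -0.505 for Ezh1 (0.529 in Vector cells and 0.0243 in SREBP2 cells, adjusted p = 7.03e-05), -0.367 for Ezh2 (adjusted p = 1.46e-05), 0.294 for Eed (adjusted p = 0.00314) and -0.596 for Suz12 (adjusted p = 1.7e-06). Among genes of DNA methylation it was 1.86 for Dnmt3b (-1.97 in Vector cells and -0.111 in SREBP2 cells, adjusted p = 9.07e-10), 0.863 for Uhrf1 (adjusted p = 4.51e-06), 0.114 for Dnmt1 (adjusted p = 0.0476), -0.377 for Tet2 (adjusted p = 0.00387) and 0.329 for Tet3 (adjusted p = 0.000736). Background for these calls is the 59% of all genes tested that passed the same test.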

How the results depend on the processing

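Over 20 alternatives, 1190 values of the 10 genes were recomputed, of which 1135 kept their direction and their side of the threshold. For EST in Vector cells all 9 calls held under every alternative run. The number of genes passing for SREBP2 with EST was 1208 with the library number as a block (2448 without), and 7 members passed when SREBP2 library 1 and SREBP2+EST library 1 were both left out (3 with them). For EST in SREBP2 cells, where no gene passed, 12 genes passed by DESeq2, 22 without the filter, 8 with only the compared groups, 0 to 18 with 1 library left out, and 1567 genes and 2 members without those 2 libraries. Split by direction, 63.7% of the genes called for SREBP2 with EST were higher, and 42.2% under library totals alone; for SREBP2 alone against EST alone the shares were 61.7% and 42.2%. No call of a member changed with scaling.

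Some signs turned. For EST in SREBP2 cells, log2 values turned to -0.0272 for Eed with the block, to -0.00462 (DESeq2), -0.00379 (relative log expression) and -0.136 (without both libraries) for Dnmt3a, and to 0.00906 for Tet2 (without both). For SREBP2 alone against EST alone, Dnmt3b turned to 0.0533 and Uhrf1 to 0.101 without both. With 1 library left out, values for EST in SREBP2 cells ran from -0.00775 to 0.0803 for Ezh1, -0.0363 to 0.0642 for Eed, -0.00713 to 0.0772 for Suz12, -0.0253 to 0.0117 for Dnmt1, -0.278 to 0.229 for Dnmt3a, -0.0865 to 0.0304 for Tet2, -0.0198 to 0.0344 for Tet3. They ran from -0.122 to 0.389 for Dnmt3a with SREBP2 in cells given EST (0.16 with all libraries), and from -0.0559 to 0.0564 for Dnmt3b, -0.077 to 0.104 for Uhrf1 between the single treatments. The cause was not tested.

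Dnmt3a passed for SREBP2 without EST under 6 alternatives (adjusted p from 0.0351 to 0.0498), and the interaction of Dnmt1 was lost under 9 (adjusted p from 0.0565 to 0.184). With the library number as a block, members past the threshold numbered 9, 8, 3, 0, 7 and 3 for the 6 comparisons in the order of the report. Tet2 lost its call for SREBP2 without EST (adjusted p = 0.0696) and its interaction (0.0608). Same-numbered libraries did not deviate together. With 1 library left out, the log2 difference in the ratio of Ezh1 to Ezh2 ranged from 0.0995 to 0.161 for EST in Vector cells, from 0.466 to 0.526 for SREBP2 without EST, from 0.331 to 0.388 for SREBP2 with EST and from -0.0231 to 0.0219 for EST in SREBP2 cells. Dnmt3a had the lowest counts of the 10 genes, and whether depth limits its calls was not tested.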
